A study of Mus musculus with 8 samples.

Results

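The loci of 8 transcription factors of the T cell lineage were examined in chromatin accessibility data from mouse spleen: Bcl11b, Tcf7, Lef1, Gata3, Tox, Runx3, Zbtb7b and Foxp3, of 21827 protein-coding genes in all. They were chosen by name for their known place in T cell development, with earlier results of these data known. For each gene the bulk peaks at its promoter, inside the gene and up to 50 kb upstream were collected, and the single-cell fragments at the same places were counted.

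Spleens of C57BL/6J mice, 8 weeks old and of both sexes, were fixed in formalin for 16 h and embedded in paraffin (FFPE), and nuclei were then isolated from them. In ATAC-seq the Tn5 transposase cuts open DNA and leaves adapters there, so accessible DNA yields the most fragments. After this reaction the DNA was purified either with reverse crosslinking (+RV), which frees it from formaldehyde-fixed protein, or without (−RV). Each condition had 2 bulk libraries with a peak list each, and 2 labelled single-cell libraries whose fragments came as 1 pooled set. No cell type was sorted, so every nucleus of the spleen piece could contribute. Tagmented nuclei were divided between +RV and −RV, and replicates within a condition are technical by the study's own account, so p-values measure technical spread only, and the number of mice behind them is not stated in the sources read here.

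The +RV peak lists held 47695 and 47799 peaks and the −RV lists 32224 and 32675. The weakest peaks listed had folds of 1.72 and 1.75 in +RV and of 1.97 and 1.93 in −RV, the fold being the height of a peak's summit relative to its local background. The reads behind the lists are unknown here. Single-cell depth was 14747920 fragments over 18620 barcodes in +RV (median 667 per barcode) and 1727885 fragments over 2406 barcodes in −RV (median 633). Both sets shared 2 barcodes. As a check of the labelled tissue, promoters of 14 of 16 T cell markers and 14 of 14 B cell markers carried a peak in each +RV library, against 10 and 13 in each −RV library. Over all genes 53.6% of promoters did so in +RV and 47.7% in −RV. A group of 769 barcodes carried markers of pancreatic acinar cells, a neighbouring tissue.

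T cells form when a progenitor in the thymus receives Notch signals, switches on TCF1 and GATA3 and then, with BCL11B, closes off the other fates. Later factors divide the lineage: ThPOK directs CD4 helper cells, RUNX3 directs CD8 cytotoxic cells and FOXP3 holds regulatory T cells in place. In the spleen these factors mark the T cell zones, whereas the larger B cell compartment relies on factors such as PAX5 and EBF1. Enhancers of such genes often lie in introns or far upstream, so the promoter alone shows only part of their regulation.

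Positions are on mm10 throughout. The early factors were Bcl11b on chromosome 12 (107910403 to 108003602, minus strand), Tcf7 on chromosome 11 (52252371 to 52283014, minus strand), Lef1 on chromosome 3 (131110471 to 131224356, plus strand) and Gata3 on chromosome 2 (9857078 to 9890034, minus strand). Bcl11b encodes a zinc finger factor of T lineage commitment. Tcf7 and Lef1 encode the related HMG-box factors TCF1 and LEF1, which bind the same motif and can act with beta-catenin. Gata3 encodes a zinc finger factor needed early in the thymus and again in CD4 cells. The later factors were Tox on chromosome 4 (6686353 to 6991557, minus strand), Runx3 on chromosome 4 (135120652 to 135177990, plus strand), Zbtb7b on chromosome 3 (89377644 to 89394776, minus strand) and Foxp3 on chromosome X (7573644 to 7595245, plus strand). Tox encodes an HMG-box factor of CD4 lineage development and of exhausted T cells, Zbtb7b encodes ThPOK, and Runx3 is read from a distal and a proximal promoter.

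The sequences shown are those of peak regions on which the cell type results turn. For each gene with a region of higher level in T-like barcodes, the region with the highest T-like level was taken among those called in all 4 bulk libraries, or among all its regions where none was. For Bcl11b the promoter and the intron region at 75.5 kb tied at 9 T-like fragments, and the promoter was taken because it held more fragments in all. Each sequence spans 200 bp around the bulk summit and is the plus strand of the RefSeq GRCm38.p6 (mm10) genome. Capitals mark matches, on either strand, of the letters TGTGGT for RUNX factors, AGATAA for GATA factors, CTTTGA for TCF/LEF factors or AGGAAG for ETS factors.
Bcl11b promoter, chr12:108004108-108004307: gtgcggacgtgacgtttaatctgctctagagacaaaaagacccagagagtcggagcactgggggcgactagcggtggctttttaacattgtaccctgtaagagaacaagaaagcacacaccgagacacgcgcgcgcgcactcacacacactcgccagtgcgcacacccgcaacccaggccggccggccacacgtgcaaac
Tcf7 upstream, chr11:52314158-52314357: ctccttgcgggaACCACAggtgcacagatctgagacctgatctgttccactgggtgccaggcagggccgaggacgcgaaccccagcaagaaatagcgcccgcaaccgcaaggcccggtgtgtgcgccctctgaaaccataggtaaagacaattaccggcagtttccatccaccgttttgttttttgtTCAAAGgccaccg
Lef1 intron, chr3:131157512-131157711: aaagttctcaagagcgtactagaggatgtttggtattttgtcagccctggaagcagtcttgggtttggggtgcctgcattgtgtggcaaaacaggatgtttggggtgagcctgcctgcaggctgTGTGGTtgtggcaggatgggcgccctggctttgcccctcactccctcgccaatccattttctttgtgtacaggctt
Gata3 promoter, chr2:9879552-9879751: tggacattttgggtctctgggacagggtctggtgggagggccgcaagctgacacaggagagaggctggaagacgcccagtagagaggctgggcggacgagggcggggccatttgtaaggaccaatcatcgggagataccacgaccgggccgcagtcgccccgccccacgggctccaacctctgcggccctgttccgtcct
Tox intron, chr4:6970613-6970812: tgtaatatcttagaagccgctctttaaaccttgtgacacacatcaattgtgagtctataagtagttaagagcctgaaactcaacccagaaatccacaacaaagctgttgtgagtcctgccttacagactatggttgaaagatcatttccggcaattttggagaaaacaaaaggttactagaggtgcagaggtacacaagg
Runx3 distal promoter, chr4:135120433-135120632: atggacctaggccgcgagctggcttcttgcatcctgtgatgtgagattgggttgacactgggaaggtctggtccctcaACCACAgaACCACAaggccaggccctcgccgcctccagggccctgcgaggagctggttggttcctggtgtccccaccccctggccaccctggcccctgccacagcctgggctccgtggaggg
The Runx3 distal promoter held 2 RUNX matches, both on the minus strand, 22 and 14 bp before the summit as counted along the printed sequence. The Tcf7 region held a RUNX and a TCF/LEF match and the Lef1 region 1 RUNX match. The Bcl11b, Gata3 and Tox sequences held none of these letters. Of all 60133 merged peak regions, cut to the same length, 18.4% held the RUNX letters, 9.02% the GATA letters, 12.1% the TCF/LEF letters and 40.2% the ETS letters.

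The first comparison asked which promoters of the T cell factors were called accessible in bulk with and without reverse crosslinking. A promoter reached from 1000 bp upstream to 200 bp downstream of an annotated start site. It counted as called in a condition if each of its libraries had a peak that touched it. In +RV 7 of 8 promoters were called, where 53.6% of all genes were, and in −RV 5 of 8, where 47.7% of all genes were. The same 5 were called in all 4 libraries, as were 47.7% of all genes. Bcl11b was called in both +RV libraries and in neither −RV library, as were 3.48% of all genes. In bulk, fewer cells of a type and less signal per cell cannot be told apart.

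Among the early factors, the Bcl11b promoter had peaks of 4.28- and 3.42-fold in +RV libraries 1 and 2 and none in the −RV libraries. Its second +RV peak ranked 90.9% down its list by −log10 q, the caller's measure of confidence, so it sat near the limit of the list. Lef1 had promoter peaks of 3.37- and 3.53-fold in +RV, against 3.33-fold in −RV library 1 and none in −RV library 2. Tcf7 had 3.3- and 3.77-fold peaks in +RV, against 3.94- and 3.42-fold peaks in −RV. Gata3 reached 5.63- and 5.74-fold in +RV, against 5.91- and 5.5-fold in −RV. The +RV and −RV folds of Tcf7 and Gata3 overlapped, so wherever both conditions listed these promoters the peaks were of like height.

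Among the later factors, Tox had promoter peaks of 4.59- and 5.1-fold in +RV, against 3.97- and 2.71-fold in −RV, without overlap. The strongest Runx3 promoter peak, at the distal start site, reached 7.02- and 6.38-fold in +RV, against 5.96- and 6.36-fold in −RV. Zbtb7b had 5.27- and 4.54-fold peaks in +RV, against 6.3- and 5.36-fold peaks in −RV. Of these genes only Zbtb7b had its highest promoter peak in −RV. Foxp3, expressed by a minor subset of CD4 cells, had no promoter peak in any library. With peaks kept only at a −log10 q of at least 5, 6 promoters stayed called in +RV, where 52.8% of all genes did, and 3 in −RV, where 46.9% did, Bcl11b being lost in +RV and Tcf7 and Tox in −RV. With equal numbers of peaks per library, Bcl11b was lost in +RV and no promoter was called in +RV alone. With a summit required in the window, 7 promoters were called in +RV, where 49.7% of all genes were, and 4 in −RV, where 45% were. With a window of 500 bp on each side, 7 were called in +RV, where 53.4% of all genes were, and 4 in −RV, where 47.7% were. In both settings Gata3 was the promoter lost, being called in neither −RV library.

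**Figure D1:**
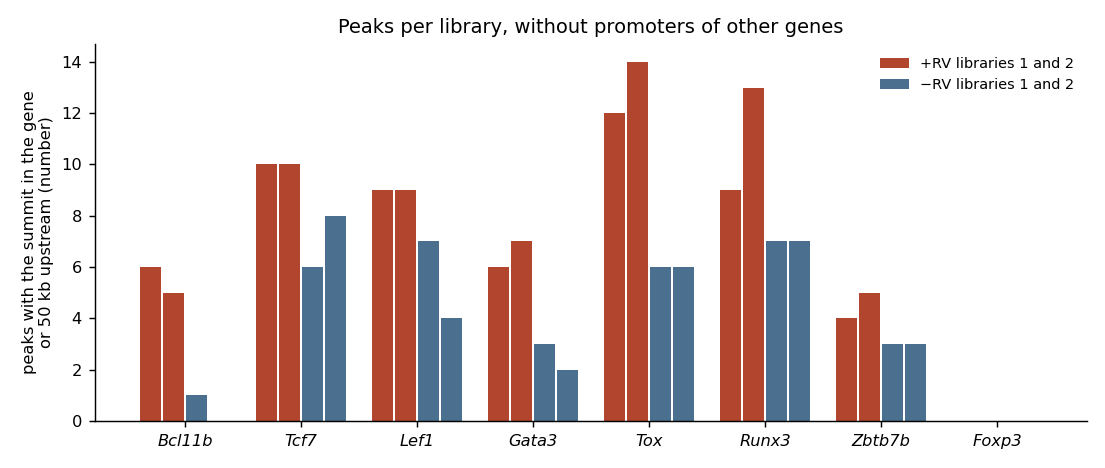
Number of bulk peaks (vertical axis) at each T cell factor, in the gene or up to 50 kb upstream, in +RV libraries 1 and 2 and −RV libraries 1 and 2, with promoters of other genes left out. Bcl11b had 6 and 5 peaks in +RV, against 1 and 0 in −RV, while Foxp3 had none in any library.

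Over the whole loci, promoters included, more peaks were listed in +RV. Summed over the 8 loci, +RV libraries listed 62 and 69 peaks and −RV libraries 38 and 36. The groups did not overlap, with means of 65.5 ± 4.95 in +RV and 37 ± 1.41 in −RV (SD, n = 2), a ratio of 1.77. By an exact permutation test (two-sided) p was 0.333, the smallest that 2 libraries against 2 allow. The peaks covered 29569 and 31423 bp in +RV, against 16783 and 16019 bp in −RV, a ratio of 1.86 with the same exact permutation p of 0.333. With every list cut to the same number of peaks, the loci kept 42 and 44 peaks in +RV, against 38 and 36 in −RV, so the ratio was 1.16. The covered bases then came to 24263 and 24207 bp in +RV, against 16783 and 16019 bp in −RV, a ratio of 1.48.

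Tox, the longest of these genes, listed 12 and 14 peaks in +RV, against 6 and 6 in −RV. Tcf7 listed 10 and 10 peaks in +RV, against 6 and 8 in −RV. Lef1 listed 9 and 9 in +RV, against 7 and 4 in −RV. For each of these HMG-box genes both +RV libraries listed more peaks than either −RV library. Gata3 listed 6 and 7 peaks in +RV, against 3 and 2 in −RV. Runx3 listed 9 and 13 in +RV, against 7 and 7 in −RV. Zbtb7b listed 4 and 5 of its own in +RV, against 3 and 3 in −RV, and lies among the promoters of Pbxip1, Pygo2, Shc1, Cks1b and Flad1. Both +RV libraries thus listed more peaks than either −RV library for all 7 genes with peaks of their own, as they did for 36.4% of 16556 such genes in the genome, and the plot of peaks by library shows that Bcl11b kept the fewest in −RV.

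**Figure D2:**
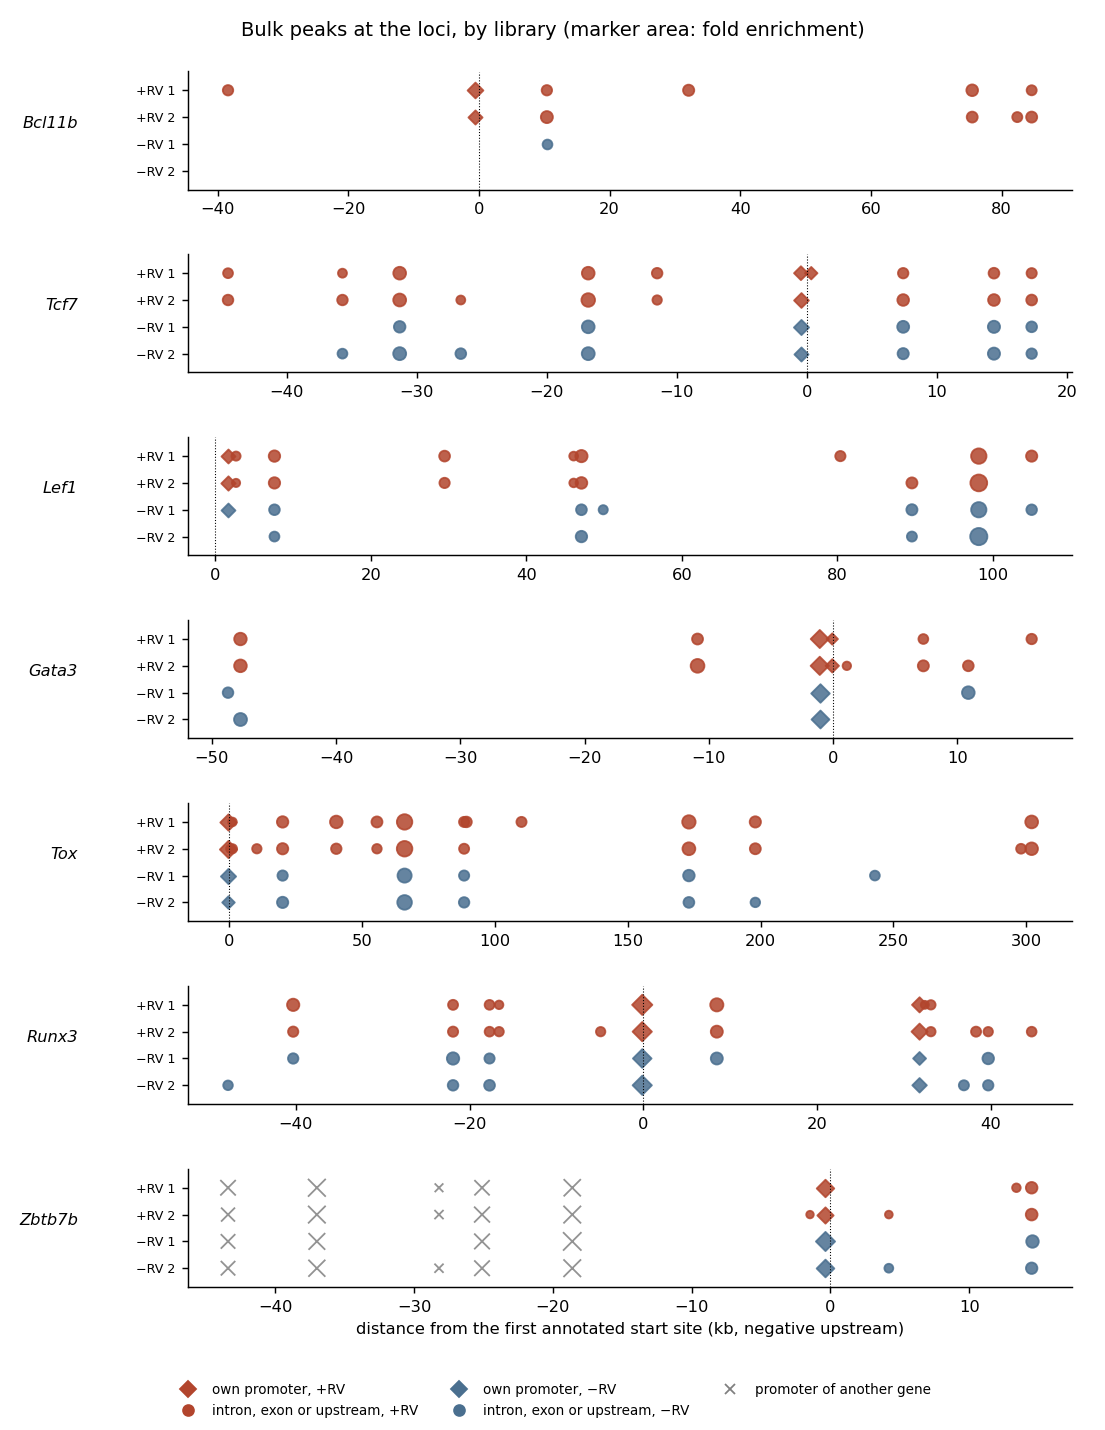
Bulk peaks along the loci of 7 T cell factors, by library, with distance from the first annotated start site in kb on the horizontal axis and marker area set by fold. Diamonds are own promoters, circles are introns, exons or upstream DNA, and grey crosses are promoters of other genes. Most peaks of Tcf7 lie upstream of the gene or in its introns and recur in −RV, while those of Bcl11b appear almost only in +RV.

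Overlapping peaks of the 4 libraries were merged into regions, which gave 80 at these loci: 10 at own promoters, 44 in introns, 4 in exons, 16 upstream and 6 at promoters of other genes. Of the 80 regions 26 were called in all 4 libraries, or 32.5%, against 39.2% of all merged regions. In both +RV and neither −RV library 17 were called, or 21.2%, against 12.5% of all merged regions. In both −RV and neither +RV library 0 were called, where 0.427% of all merged regions were. At least 1 region outside promoters was called in both +RV libraries for 7 of 8 genes, against 53.3% of all genes. In both −RV libraries this held for 5 of 8, against 38.8% of all genes, and in all 4 libraries again for 5 of 8, against 37.6% of all genes.

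Tcf7 carried the densest set. It had 8 regions outside promoters called in both +RV libraries and 5 called in both −RV libraries, where the median over all genes was 1 in +RV and 0 in −RV. Per length this was 9.92 regions per 100 kb in +RV, and 99.1% of genes had fewer. Among its regions, the one 31.3 kb upstream had folds of 5.56 and 5.68 in +RV, against 4.57 and 5.73 in −RV. The one 16.8 kb upstream had folds of 5.52 and 6.32 in +RV, against 5.57 and 5.71 in −RV. Both stood above the Tcf7 promoter itself in every library. Per length Runx3 followed at 5.59 per 100 kb, from 6 such regions in +RV with 3 in −RV, and then Lef1 at 3.66, from 6 in +RV with 4 in −RV. Tox had 9 in +RV and 4 in −RV, spread over a much longer gene at 2.53 per 100 kb.

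The tallest peak among the members' own regions lay in an intron of Lef1, 98.2 kb from the first start site, with folds of 8.1 and 9.64 in +RV, against 8.01 and 10.1 in −RV. A second Lef1 intron region, 47.1 kb from that site, had folds of 5.13 and 4.66 in +RV, against 3.98 and 4.47 in −RV. A Tox intron region at 20.1 kb had folds of 4.47 and 4.36 in +RV, against 3.65 and 4.35 in −RV. The Tox region was higher in each +RV library than in either −RV library, by a small margin. For Lef1 the ranges of the taller region overlapped.

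Bcl11b and Gata3 had no region outside promoters called in both −RV libraries. Bcl11b intron regions at 75.5 kb and 84.6 kb had folds of 4.66 and 4.1, and of 3.45 and 4.17, in +RV and were absent from both −RV lists. Its intron region at 10.4 kb had folds of 3.7 and 4.96 in +RV, against 3.29 in −RV library 1 and none in −RV library 2. Gata3 regions 10.9 kb upstream of the start site used here and 7.28 kb inside the gene had folds of 4.11 and 6.47, and of 3.3 and 4.19, in +RV and were absent from both −RV lists. The single region at the Foxp3 locus was the promoter of its neighbour Ppp1r3f, with folds of 7.96 and 8.26 in +RV, against 9.49 and 8.47 in −RV.

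The next comparison asked whether single-cell fragments at the same places differed between the conditions. Levels are in CPM, that is, fragments scaled to all nuclear fragments of their set. With 1 pooled set per condition there is no replicate, so the 95% intervals given are exact and cover counting error only, and no test was made. At promoters the 95% interval of the +RV over −RV ratio included 1 for all 8 genes. The Bcl11b promoter held 18 fragments in +RV (1.31 CPM, interval 0.778 to 2.08), against 3 in −RV (1.88 CPM, interval 0.389 to 5.51), a ratio of 0.697 with an interval of 0.204 to 3.7. The bulk call of this promoter in +RV alone thus had no counterpart of detectable size at this depth. Barcodes of both sets had been selected by the authors on their share of reads near start sites, and the effect of this on promoter levels was not tested. Foxp3 held 13 fragments in +RV (0.949 CPM) and 4 in −RV (2.51 CPM), a ratio of 0.378 with an interval of 0.117 to 1.59.

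The other promoters held more fragments in +RV, the deeper set, but their levels in CPM were higher in +RV for some and in −RV for others. Zbtb7b, whose start sites give it the widest window, had 27.1 CPM in +RV and 23.9 CPM in −RV, a ratio of 1.14 with an interval of 0.813 to 1.63. Tox had 6.49 CPM in +RV and 3.77 CPM in −RV, a ratio of 1.72 with an interval of 0.761 to 4.82. Runx3 had 6.93 CPM in +RV and 5.65 CPM in −RV, and Gata3 had 5.55 CPM in +RV and 5.65 CPM in −RV. Tcf7 and Lef1 had ratios of 0.813 and 0.804, with intervals of 0.402 to 1.86 and of 0.436 to 1.62. Per kb of window and over both sets, Zbtb7b was the most accessible of the 8 promoters at 6.56 CPM and Foxp3 the least at 0.327 CPM, against a median of 1.98 CPM over all genes.

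**Figure D3:**
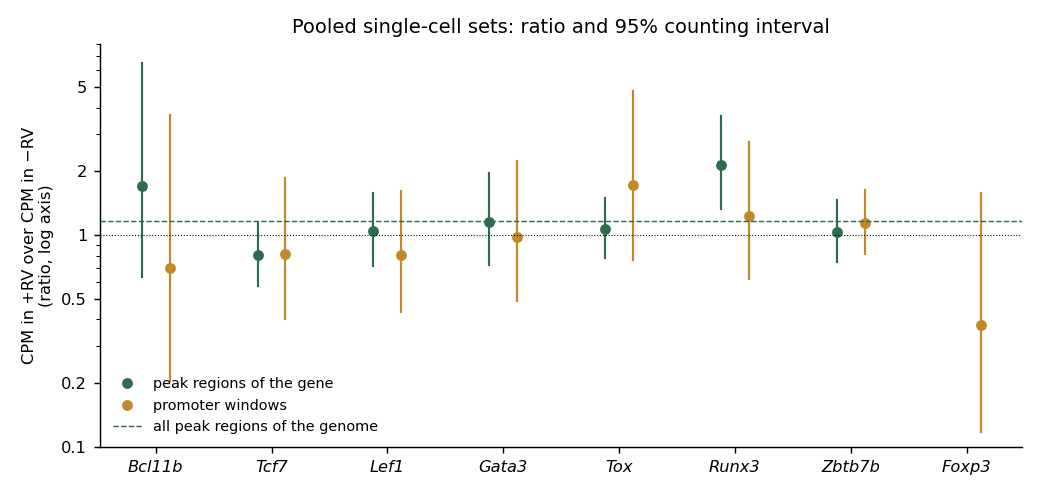
Ratio of single-cell levels in +RV over −RV for each T cell factor on a log axis, with 95% counting intervals, for its bulk peak regions and for its promoter. The dashed line is the ratio of 1.17 over all peak regions of the genome, and the Runx3 regions, at 2.14, are the only ones whose interval lies above 1.

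Summed over its own peak regions, Runx3 was the gene whose ratio interval excluded 1. Its 15 regions held 331 fragments in +RV (24.2 CPM) and 18 in −RV (11.3 CPM), a ratio of 2.14 with an interval of 1.33 to 3.65. Divided by the 20 Tn5 indices of each set, the level ran from 10.2 to 50.1 CPM with a median of 23 in +RV, and from 0 to 36.2 CPM with a median of 0 in −RV, where 12 of 20 indices held no fragment. The distal promoter held 39 fragments in +RV (2.85 CPM) and 4 in −RV (2.51 CPM), a ratio of 1.13 with an interval of 0.409 to 4.36. An intron region at 33.1 kb held 44 in +RV (3.21 CPM) and 1 in −RV (0.628 CPM), a ratio of 5.11 with an interval of 0.871 to 206. Both intervals include 1 and 2.14, so which regions carried the difference cannot be told from these counts. Runx3 was 1 of 7 genes compared, the intervals are not adjusted for that number, and 18 fragments carry the −RV value.

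The regions of the other 6 genes had ratios between 0.804 for Tcf7 (interval 0.574 to 1.16) and 1.71 for Bcl11b (interval 0.635 to 6.5). Taken over all 7 genes, the regions held 138 CPM in +RV and 122 CPM in −RV, a ratio of 1.13 with an interval of 0.971 to 1.31, against 1.17 over all regions of the genome. The 17 regions called in bulk only in +RV held 19.8 CPM in +RV single cells and 18.8 CPM in −RV single cells, a ratio of 1.05 with an interval of 0.718 to 1.59. The 21 own regions called in all 4 bulk libraries held 81.3 CPM in +RV and 68.5 CPM in −RV, a ratio of 1.19 with an interval of 0.975 to 1.46. At these loci, the 17 regions that only the +RV bulk lists held were therefore not raised in +RV single cells beyond counting error. Their interval also included the 1.17 of all regions. Over the genome, the 7523 regions of this class held 9606 CPM in +RV and 8563 CPM in −RV single cells. The interval of that ratio was 1.1 to 1.14, above 1 but below 1.17.

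Fragment length separated the conditions at these regions. Fragments longer than 150 bp, about the DNA of a nucleosome core, made up 26.9% in +RV (exact binomial interval 24.9 to 29) and 2.56% in −RV (interval 0.838 to 5.88). Over all merged regions the shares were 28.5% in +RV and 4.34% in −RV. At the members' regions +RV fragments had a median of 92 bp and −RV fragments of 75 bp. Reads were trimmed by the authors to fixed lengths, which affects fragment lengths close to those values.

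To ask in which cells the factors were accessible, barcodes were first classed by markers other than the 8 genes. A T-marker barcode held at least 2 fragments in the windows of 16 T cell markers, such as Cd3e and Lck, and more than in those of 14 B cell markers, such as Cd79a and Ms4a1. A B-marker barcode was defined the other way round. A gene window took in the gene, 5000 bp before it and 500 bp after it. The +RV set gave 1381 T-marker and 953 B-marker barcodes, and the −RV set 129 and 74.

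In +RV all 8 genes had more signal in T-marker than in B-marker barcodes, and for 6 the interval of the ratio lay above 1, as it did for 7.46% of the 4302 genes with at least 100 fragments. Bcl11b had 126 CPM in T-marker barcodes (interval 107 to 147) and 30.7 CPM in B-marker barcodes (interval 20.2 to 44.6), a ratio of 4.1 with an interval of 2.71 to 6.42. Tcf7 had 78.1 CPM in T-marker and 18.2 CPM in B-marker barcodes, a ratio of 4.3 with an interval of 2.51 to 7.82. Ranked among these genes, which leave out Foxp3, Tcf7 stood first and Bcl11b second, where the median ratio was 1.01. The limit of 100 counts both classes together. Of the 6 genes only Tox, with 114 B-marker fragments, reached it without T-marker fragments. Tcf7 (95 T-marker and 16 B-marker fragments), Bcl11b (153 and 27), Lef1 (182 and 78), Gata3 (75 and 28) and Runx3 (127 and 49) reached it only with them. The ranks, and the count of 6 beside the 7.46%, are therefore a description and no support for the ratios. Gata3 had a ratio of 1.94 (interval 1.24 to 3.11), Runx3 1.88 (1.34 to 2.66), Lef1 1.69 (1.29 to 2.23) and Tox 1.43 (1.14 to 1.81). Zbtb7b and Foxp3 had ratios of 1.25 (0.899 to 1.75) and 1.7 (0.944 to 3.2). Of the 10 B cell factors, those that could be ranked in the same way had ratios between 0.44 for Ebf1 and 1.04 for Spi1, with 0.444 for Pax5 and 1.03 for Bcl6.

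In −RV the intervals were wide, and all included 1. Tcf7 had 159 CPM in T-marker and 55.8 CPM in B-marker barcodes, from 14 and 3 fragments, a ratio of 2.85 with an interval of 0.795 to 15.5. A difference of the size seen in +RV was therefore not detectable at this depth. In the 374 T-marker and 276 B-marker barcodes of +RV with at least 1000 fragments, the log2 ratio turned to -0.33 for Lef1 and -0.02 for Gata3, against 0.75 and 0.93 over all such +RV barcodes, so for these genes the contrast came from the shallower barcodes.

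Barcodes of both sets were then clustered on 5000-bp bins, with the bins at the 8 loci left out, and 10 clusters were found. Cluster 3 was T-like, with 3014 barcodes, 2705 from +RV (14.5% of that set) and 309 from −RV (12.8%). All 16 T cell markers were more than 2-fold higher there than in the other barcodes, with a summed level of 1389 CPM against 411 CPM, and 0 of 14 B cell markers were. Of 8 NK cell markers 6 were also more than 2-fold higher, with a summed level of 182 CPM against 63.6 CPM. Among them were Eomes, with 30.6 CPM against 5.76 CPM, and Gzmb, with 14.5 CPM against 1.72 CPM, both also used by cytotoxic T cells. The NK receptor genes Klre1, Klrk1 and Klrb1c had ratios of 2.58 (interval 1.86 to 3.52), 2.2 (1.62 to 2.94) and 1.68 (1.23 to 2.27). A further NK receptor gene, Ncr1, had 3.64 CPM against 1.57 CPM. Its ratio had an interval of 0.831 to 5.65, from 7 T-like fragments. The part of NK cells in the levels of the 8 genes was not tested. Levels by cluster are a description, since barcodes of 1 set are not replicates.

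**Figure D4:**
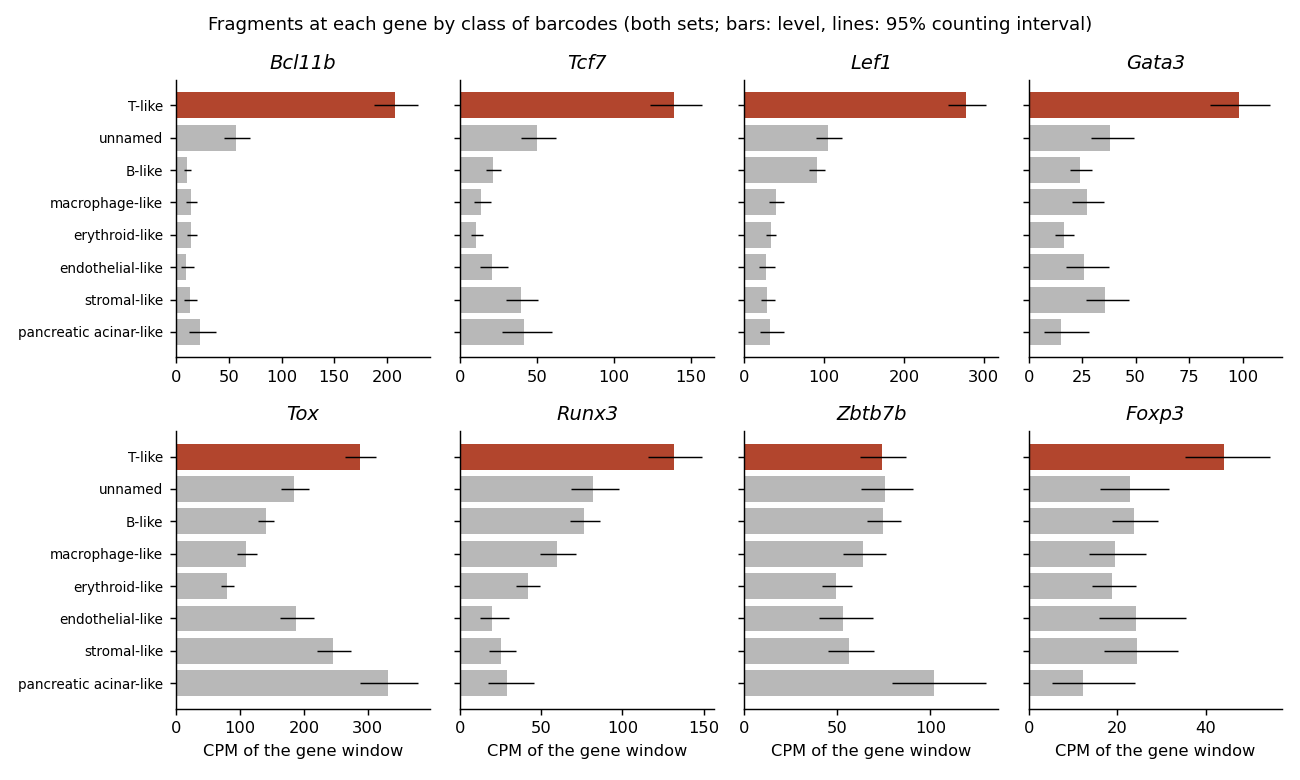
Single-cell level of each T cell factor's gene window, in CPM, in every class of barcodes, T-like first, with 95% counting intervals. T-like barcodes are highest for Bcl11b, Tcf7, Lef1, Gata3, Runx3 and Foxp3, while pancreatic acinar-like barcodes are highest for Tox, at 331 CPM, and Zbtb7b, at 102 CPM.

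The early factors stood out most in T-like barcodes. Bcl11b had 208 CPM in T-like barcodes (interval 188 to 229) and 18.1 CPM in all others (interval 15.9 to 20.5), a ratio of 11.5 with an interval of 9.76 to 13.5. Its fold with a pseudocount of 1 CPM, 10.9, was the highest of 11234 genes ranked, those with at least 300 fragments in all. Bcl11b reached that limit only with its T-like fragments, since all other barcodes held 242. Its rank is therefore a description and no support for the ratio. At least 1 Bcl11b fragment was found in 11.2% of T-like barcodes (median 616 fragments per barcode) and in 0.588% of B-like ones (median 629), a class that should lack this gene. Outside T-like barcodes its next level was that of the cluster left unnamed, 56.7 CPM, and every other class lay between 9.33 and 22.9 CPM. Of the 8 genes Bcl11b had the highest ratio of T-like over other barcodes.

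Tcf7 had 139 CPM in T-like barcodes and 23.9 CPM in all others, a ratio of 5.82 (interval 4.93 to 6.86), at rank 3 among the genes ranked. Its next levels were 49.7 CPM in the unnamed cluster, 41.2 CPM in pancreatic acinar-like and 39.3 CPM in stromal-like barcodes, whose intervals overlapped. Lef1 had 278 CPM in T-like barcodes and 56.5 CPM in all others, a ratio of 4.93 (interval 4.41 to 5.52). In B-like barcodes Lef1 had 90.7 CPM (interval 81 to 101), and T-like barcodes exceeded them by a ratio of 3.07 (interval 2.67 to 3.54), against 6.51 (interval 5.02 to 8.53) for Tcf7. Gata3 had 98.2 CPM in T-like barcodes and 25.4 CPM in all others, a ratio of 3.87 (interval 3.22 to 4.64), and the other classes lay between 15.2 and 38.2 CPM.

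Runx3, Tox and Zbtb7b had lower ratios than the early factors. Runx3 had 132 CPM in T-like barcodes and 53.9 CPM in all others, a ratio of 2.45 (interval 2.11 to 2.83), with 82.1 CPM in the unnamed cluster and 76.4 CPM in B-like barcodes, whose intervals overlapped, and 19.6 CPM in endothelial-like ones. Tox had 288 CPM in T-like barcodes and 152 CPM in all others, a ratio of 1.9 (interval 1.72 to 2.08). T-like barcodes could not be told from pancreatic acinar-like ones at Tox, that class having 331 CPM and the ratio of T-like over it being 0.871 (interval 0.743 to 1.02), and stromal-like ones stood at 246 CPM. Zbtb7b had 73.8 CPM in T-like barcodes and 64.8 CPM in all others, a ratio of 1.14 (interval 0.946 to 1.36), so its window did not set T-like barcodes apart.

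Foxp3 had 44.2 CPM in T-like barcodes and 21.4 CPM in all others, a ratio of 2.06 (interval 1.6 to 2.64). Its window includes the Ppp1r3f promoter. Without that region it had 33.2 CPM in T-like barcodes and 8.9 CPM in all others, a ratio of 3.74 (interval 2.71 to 5.1), from 64 and 119 fragments. Foxp3 was thus raised in T-like barcodes although no bulk peak of its own was listed. Per kb of gene window, the T-like level was highest for Tcf7 at 3.85 CPM, followed by Zbtb7b at 3.26, Gata3 at 2.55, Lef1 at 2.33, Bcl11b at 2.11, Runx3 at 2.1, Foxp3 at 1.63 and Tox at 0.928 CPM.

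Within T-like barcodes the conditions could not be separated for any of the 8 genes. Bcl11b had 211 CPM in +RV and 180 CPM in −RV, a ratio of 1.17 with an interval of 0.819 to 1.73. Tcf7 had 138 CPM in +RV and 153 CPM in −RV, and Lef1 had 277 CPM in +RV and 289 CPM in −RV. The widest gap was at Zbtb7b, with 77.5 CPM in +RV and 38.2 CPM in −RV, a ratio of 2.03 with an interval of 0.959 to 5.14 from 135 and 7 fragments. In −RV barcodes taken alone, the T-like cluster still exceeded the others for Bcl11b (ratio 14.1, interval 7.71 to 26.6) and Tcf7 (ratio 6.94, interval 4.01 to 12). For Zbtb7b the −RV ratio was 0.566 (interval 0.222 to 1.21) and for Foxp3 2.28 (interval 0.894 to 5.15).

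The peak regions of the 8 loci were then read one by one across classes. Of the 74 regions that were not promoters of other genes, 42 had an interval of T-like over other barcodes above 1, or 56.8%, against 11.8% of all merged regions, and 0 had one below 1, against 5.53% of all merged regions. These were all 7 regions of Bcl11b, all 11 of Tcf7, 7 of 11 of Lef1, 5 of 9 of Gata3, 5 of 16 of Tox, 7 of 15 of Runx3 and 0 of 5 of Zbtb7b. By position they were 7 of 10 own promoters and 35 of 64 other regions. Regions of a locus share its barcodes, so they are not independent of each other.

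**Figure D5:**
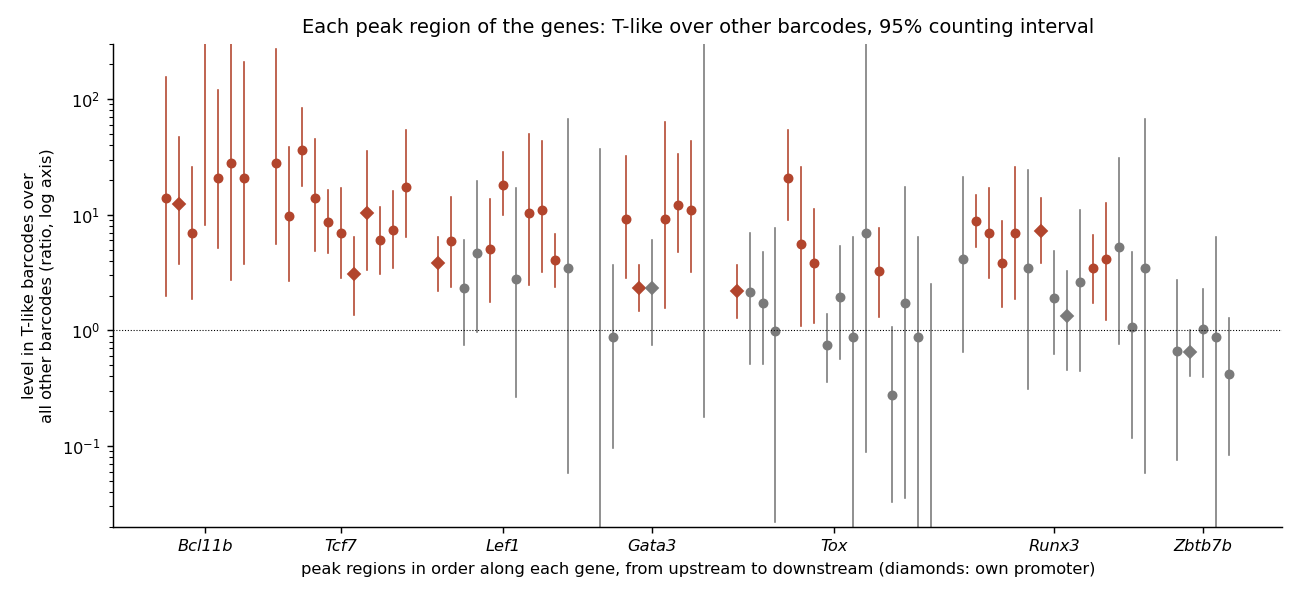
Level in T-like over all other barcodes for each peak region of 7 T cell factors, on a log axis, with 95% counting intervals, in order along each gene from upstream to downstream. Red marks an interval above 1, diamonds mark own promoters and lines are cut at the axis limits. Regions at Bcl11b, Gata3 and Tox with no fragment in T-like barcodes or none in all others have no point. All 11 Tcf7 regions lie above 1, as do all 15 Runx3 regions, 7 of them with an interval above 1, while Gata3, Tox and Zbtb7b hold regions on both sides.

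The largest contrast among well covered regions was that of the Tcf7 region 31.3 kb upstream, whose sequence is shown above. It had 24.4 CPM in T-like barcodes and 0.673 CPM in all others, a ratio of 36.3 with an interval of 17.6 to 84.2, and T-like barcodes gave 47 of its 56 fragments. The Tox intron region at 20.1 kb had 12.5 CPM in T-like barcodes and 0.598 CPM in all others (ratio 20.8, interval 9.06 to 53.7). The Lef1 intron region at 47.1 kb had 21.8 CPM in T-like barcodes and 1.2 CPM in all others (ratio 18.2, interval 10 to 34.7). All of these lay outside promoters, and all were called in the 4 bulk libraries. The Bcl11b promoter region had 4.67 CPM in T-like barcodes and 0.374 CPM in all others (ratio 12.5, interval 3.76 to 47.5), from 9 T-like fragments.

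Other regions of the same genes were shared or led by other cells. The tallest Lef1 peak, at 98.2 kb, had 13 CPM in T-like barcodes and 3.22 CPM in all others, with 6.84 CPM in B-like ones. A Tox intron region at 198 kb, unlike the one at 20.1 kb, had 1.04 CPM in T-like, 11.2 CPM in endothelial-like and 8.81 CPM in stromal-like barcodes. These came from 2, 12 and 13 fragments, and T-like over others was 0.278 (interval 0.0327 to 1.06). The tallest Tox peak, in an intron at 66 kb, had 5.71 CPM in T-like, 16 CPM in B-like and 19.8 CPM in pancreatic acinar-like barcodes. Its ratio of T-like over others was 0.742 (interval 0.359 to 1.38). The class with the highest level thus differed between these Tox regions, although the intervals of the regions at 198 and 66 kb included 1. The Gata3 region 47.7 kb upstream had 1.04 CPM in T-like and 6.13 CPM in macrophage-like barcodes, from 2 and 12 fragments.

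At Runx3 the promoters differed. The distal promoter had 11.4 CPM in T-like barcodes and 1.57 CPM in all others (ratio 7.28, interval 3.82 to 13.9), whereas the proximal promoter, 31.8 kb downstream, had 3.12 CPM in T-like barcodes and 2.32 CPM in all others (ratio 1.34, interval 0.458 to 3.27). A region 40.3 kb upstream of Runx3 had 19.2 CPM in T-like barcodes and 2.17 CPM in all others (ratio 8.86, interval 5.3 to 14.9). The Gata3 promoter region with its summit 1.06 kb upstream was less selective. It had 14 CPM in T-like barcodes and 5.98 CPM in all others (ratio 2.34, interval 1.46 to 3.67). The Zbtb7b promoter had 11.9 CPM in T-like barcodes and 18.2 CPM in all others, a ratio of 0.655 with an interval of 0.407 to 1.01, and stood at 29 CPM in pancreatic acinar-like ones.

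Across the regions, matches of the TCF/LEF letters were found in 11 of the 42 regions with a T-like interval above 1, or 26.2%, and in 1 of the other 32, or 3.12%, against 12.1% of all merged regions of the same length. The RUNX letters were found in 23.8% of the 42 and 15.6% of the other 32, the ETS letters in 38.1% and 43.8%, and the GATA letters in 4.76% and 0%. These shares describe letters in short windows and were not tested.

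Other regulators of the lineages were set beside the 8 genes. Of 24 further transcription factors of T cells, 21 promoters were called in +RV, where 53.6% of all genes were, and 19 in −RV, where 47.7% were. In both +RV libraries but in neither −RV library 0 were seen, where 3.48% of all genes were. The highest single-cell promoter levels among them were those of Satb1, a chromatin organiser, with 25.3 CPM in +RV and 18.2 CPM in −RV, Klf2, with 25 CPM in +RV and 17.6 CPM in −RV, and Tcf3, with 23 CPM in +RV and 19.5 CPM in −RV. Of 10 B cell factors, 9 were called in +RV and 6 in −RV, the latter near the share of 47.7% over all genes. The fold of T-like over other barcodes, with the pseudocount, was then read for genes with at least 300 fragments. It ran from 0.291 for Spib to 2.7 for Ikzf3 among the B cell factors. Among the further T cell factors it ran from 0.926 for Tcf3 to 2.4 for Satb1. Among the T cell markers it ran from 2.09 for Cd247 to 5.19 for Il7r. Runx3 had 2.42, Foxp3 2.02 and Tox 1.89, so a raised T-like level was not particular to the 8 genes. The T cell markers called in +RV and in neither −RV library were Cd247, which encodes a signalling chain of the T cell receptor complex, and Il7r, which encodes the receptor of the survival cytokine IL-7. Calls of this kind were made for 2 of 16 T cell markers, where 3.48% of all genes had one.

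Genes whose windows varied most like those of the 8 factors were sought over the 10 clusters by Pearson's r of log2(CPM + 1). The closest to Bcl11b was Peli1 (r = 0.95), to Tcf7 Gm17657 (0.97), to Lef1 Sun2 (0.97) and to Gata3 Dlg4 (0.98). The closest to Tox was Zfp78 (0.96), to Runx3 Ezr (0.99), to Zbtb7b Ap1s3 (0.96) and to Foxp3 Dcdc2b (0.95). These are descriptions over 10 points that share libraries and depth.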

How the data were processed

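Of 8 samples, 4 were bulk libraries and 4 single-cell libraries, 2 per condition each, with groups and replicate numbers from the sample labels. The authors deposited 1 peak list per bulk library on mm10, in the layout of MACS2, which the study's methods name with removal of blacklisted regions. The deposited score is a scaled, whole-number form of the −log10 q, the deposited fold is a ratio of pile-up over local background, and the deposited −log10 p and q belong to a peak within its own list. The other deposited values are the summit offsets of the peaks and, for single cells, the start, end and barcode of each fragment, pooled by the authors into 1 set per condition. The submitters' processing notes also name Bowtie2 2.4, SAMtools 1.15, Picard 1.119 and SEACR 1.3 with no roles. Barcodes had been selected by the authors, all with at least 500 fragments. By the names of the sets they had also been selected on FRiT, which the study defines as the fraction of reads near start sites. Repeated positions (0.717% of +RV and 0.565% of −RV fragments) were kept.

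The gene set was GENCODE vM21 basic, protein-coding only, with 21827 genes and 41405 start sites. Peaks with their summit in a locus were assigned to own promoter, or else to promoter of another gene, if any part of them touched such a window. The remaining peaks were assigned by summit to exon, intron or upstream DNA. Bulk libraries were compared with an exact permutation test (two-sided). Fragments were counted by midpoint and scaled to 13703580 nuclear fragments in +RV and 1592372 in −RV. Intervals are 95%, exact Poisson for levels, exact conditional binomial for ratios and exact binomial for shares. Log2 ratios used a pseudocount of 1 CPM, which understates changes of low genes. A count of 0 allows up to 3 counts, or 0.219 CPM in +RV and 1.88 CPM in −RV.

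Barcodes were clustered on 53761 bins of 5000 bp reduced by latent semantic indexing, without 222 bins at the 8 loci, with 20 components, 20 neighbours and Leiden at resolution 1. A cluster took the name of the marker list with the highest ratio when at least 3 markers were over 2-fold. The lists covered T, B, NK, macrophage, erythroid, endothelial, stromal and pancreatic acinar cells, and cluster 5, where no such list reached this, was left unnamed. Doublets were not called, and a second clustering left out the 5% deepest barcodes. Tools were Python 3.11.15, numpy 2.4.6, scipy 1.17.1, scikit-learn 1.9.0, leidenalg 0.10.2, igraph 0.11.9 and matplotlib 3.10.9. Promoter calls, ratio intervals and clustering were tested on simulated data.

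The 8 genes, the lists and the tests were chosen with earlier results of these data known. Named genes were the 8 members, genes of the lists whose promoter call differed between conditions in both replicates (for cell types other than T cells these are given as counts), the 3 of a regulator list with the highest promoter CPM, and the 3 genes most like a member among those with at least 300 fragments, of which the text gives the closest. Alternatives were other promoter windows, a −log10 q of at least 5, equal numbers of peaks, 20 kb upstream, other marker limits, deeper barcodes, other cluster settings, leaving out each library and a replicate block. Those for deeper or single-condition T-like barcodes, shallower barcodes and the Foxp3 window without its neighbour's promoter were added after seeing the data. Some genes and regions that these rules name are left out of the text.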

Additional observations from a re-analysis of the deposited data

How the results depend on the processing

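The counts of peaks and covered bases kept their direction in all 16 alternatives. Leaving out each library in turn gave differences in peaks of 25 to 32 and in covered bases of 13168 to 15022, with 7 to 7 promoters called in +RV and 5 to 6 in −RV. With the replicate number as a replicate block the differences were again 28.5 peaks and 14095 bp, with an exact permutation p of 0.5, the smallest that design allows. Whether equal numbers mark 1 tagmented sample is not stated. At a −log10 q of at least 5, 3 promoters were called in −RV. In barcodes with at least 1000 fragments the promoter log2 ratio of +RV over −RV moved to 1.68 for Tcf7, 2.30 for Lef1, 0.86 for Zbtb7b and 0.98 for Foxp3, and to -2.12 for Bcl11b, whose few fragments leave a wide interval, and that of the Runx3 regions to 2.42. The log2 ratio of T-marker over B-marker barcodes in +RV was 1.42 for Bcl11b, -0.33 for Lef1, -0.02 for Gata3 and 0.31 for Runx3 in these deeper barcodes, and 1.41 for Lef1 and 1.78 for Gata3 in shallower ones. At 1 marker fragment it was 1.09 for Tcf7 and 0.21 for Runx3, at 3 marker fragments 2.78 for Bcl11b and 1.18 for Tox, and with marker windows at promoters 1.81 for Tox, 0.36 for Runx3 and 0.94 for Zbtb7b. The log2 ratio of T-like over other barcodes was 2.85 for Bcl11b, 1.78 for Tcf7, 1.69 for Lef1, 1.63 for Gata3, 0.41 for Tox and 0.67 for Foxp3 in deeper barcodes. In −RV barcodes it was 2.69 for Lef1, 2.59 for Gata3, 0.68 for Tox and -0.80 for Zbtb7b, and without the Ppp1r3f region 1.79 for Foxp3. The cause of these shifts was not tested. The T-marker over B-marker ratio was not formed where either class had fewer than 3 fragments. At resolution 0.5 the T-like cluster held 3031 barcodes, 2996 of them shared, and without the deepest barcodes 2275, 2220 of them shared.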

Other observations

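Promoter calls of other cell types in the same bulk lists were counted for context. Over all genes 53.6% were called in +RV and 47.7% in −RV, and the short lists below were not tested against these shares. Of 8 endothelial markers, 6 were called in +RV and 1 in −RV, a call again needing both libraries of a condition. Of 9 erythroid markers, 9 were called in +RV and 5 in −RV. Of 10 macrophage markers, 5 were called in +RV and 3 in −RV, and of 8 NK cell markers 2 in +RV and 1 in −RV. Of 6 stromal markers, 1 was called in +RV and 0 in −RV, and of 8 pancreatic acinar markers 0 in either condition.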
